A study of Mus musculus with 2 samples.

Results

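The genes described here encode the subunits of the respiratory chain and ATP synthase, complexes I to V of the inner mitochondrial membrane. They were taken by symbol: 13 genes of the mitochondrial genome (symbols starting with mt-) and 85 nuclear genes of the Nduf, Sdh, Uqcr, Cox and Atp5 families, 98 of the 32285 genes in the expression matrix. They were read in GFP-positive B16F10 cells, a mouse melanoma line, taken from 3 sources: lung tumours of wild-type hosts (WT lung), lung tumours of Prf1-/- hosts and knee bones of Prf1-/- hosts. Prf1 codes for perforin, with which cytotoxic lymphocytes open pores in their targets; the genotype is that of the host, and the tumour cells are 1 line throughout. Digestion at 37 °C took 20 min for lung tumours and 30 min for knees, which were crushed first, and the sort kept live (DAPI-negative) GFP-positive cells without the leukocyte marker CD45. Each source received 1 hashtag antibody and all were run as 1 pool by 10x 3' sequencing. The sources used here do not give the number, age or sex of the mice, nor whether animals were pooled.

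A condition is therefore a single hashtag group, no test could be made, and what follows describes 3 groups of cells. Ranges in parentheses are 95% intervals that cover counting error alone, without any variation between mice. Cells were barcodes with at least 1000 genes, at most 15% mitochondrial UMIs (unique molecular identifiers, 1 per captured molecule) and a largest hashtag count at least 2 times the second. Where 3 values follow a gene, they stand in the order WT lung, Prf1-/- lung, Prf1-/- bone. The groups held 1227, 1520 and 385 cells and 3865546, 4726709 and 1299480 UMIs, and the median cell had 2909, 2826.5 and 3107 UMIs. The mitochondrial limit removed 0 of the 9644 barcodes with at least 1000 genes, since the highest share among them was 11.2%.

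The cells carried the markers of their line: 10 pigment cell genes summed to 13418, 13694 and 10487 CPM, the UMIs of a gene or list per 1e+06 UMIs of the group. The lists for 15 other cell types each stood below 25 CPM in every group, except alveolar and airway genes in WT lung at 196 CPM. Skeletal muscle, which is rich in respiratory chain transcripts, had 5 of 6 markers at 0 UMIs in all groups, among them Acta1 and Myh4. The other marker, Ckm, stood at 9.57, 9.10 and 13.1 CPM in WT lung, Prf1-/- lung and bone. The brown adipocyte markers Ucp1, Cidea and Adipoq were also at 0.

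The respiratory chain passes electrons from NADH (complex I) and succinate (complex II) through complex III to oxygen at complex IV, and complex V turns the resulting proton gradient into ATP. Complexes I, III, IV and V are built from proteins of both genomes, complex II from nuclear genes alone. Mitochondrial genes are transcribed as long precursors from both strands of a small circular genome and cut into single RNAs, while each nuclear gene has its own promoter.

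Mitochondrially encoded subunit RNA was lower in Prf1-/- bone than in either lung group, while nuclear subunit RNA stood at nearly the same level in all 3. The 13 mitochondrial genes summed to 26320.5 CPM (26159 to 26483), 25828 CPM (25683 to 25973) and 19268 CPM (19029.8 to 19508). The 85 nuclear genes summed to 43826 CPM (43617 to 44035), 45339 CPM (45147 to 45532) and 44440.1 CPM (44078 to 44804). The bone group was thus the low one for the mitochondrial sum, and for the nuclear sum it lay between the lung groups. In a share of all RNA, less RNA of one kind per cell and more of other kinds cannot be told apart.

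The ratio of mitochondrial to nuclear subunit UMIs does not depend on how the groups are scaled. It stood at 0.601, 0.570 and 0.434. Bone against Prf1-/- lung gave 0.761 (0.749 to 0.774), and Prf1-/- lung against WT lung gave 0.949 (0.939 to 0.959). These 2 comparisons share the Prf1-/- lung group. Bone set directly against WT lung gave 0.722 (0.710 to 0.734). Counts from the 3' end are not scaled by gene length and capture differs between RNAs, so the ratio is read between groups only.

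The lower level was seen across the bone cells and not in a few. Mitochondrial genes took a median of 2.50% of a cell's UMIs in WT lung (quartiles 2.00% and 3.26%), against 2.46% for Prf1-/- lung cells (1.92% and 3.17%) and 1.89% for bone cells (1.49% and 2.28%). The upper quartile of bone cells lay below the median of both lung groups, though the groups overlapped. For nuclear subunit genes the medians were 4.34%, 4.45% and 4.42%.

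**Figure D1:**
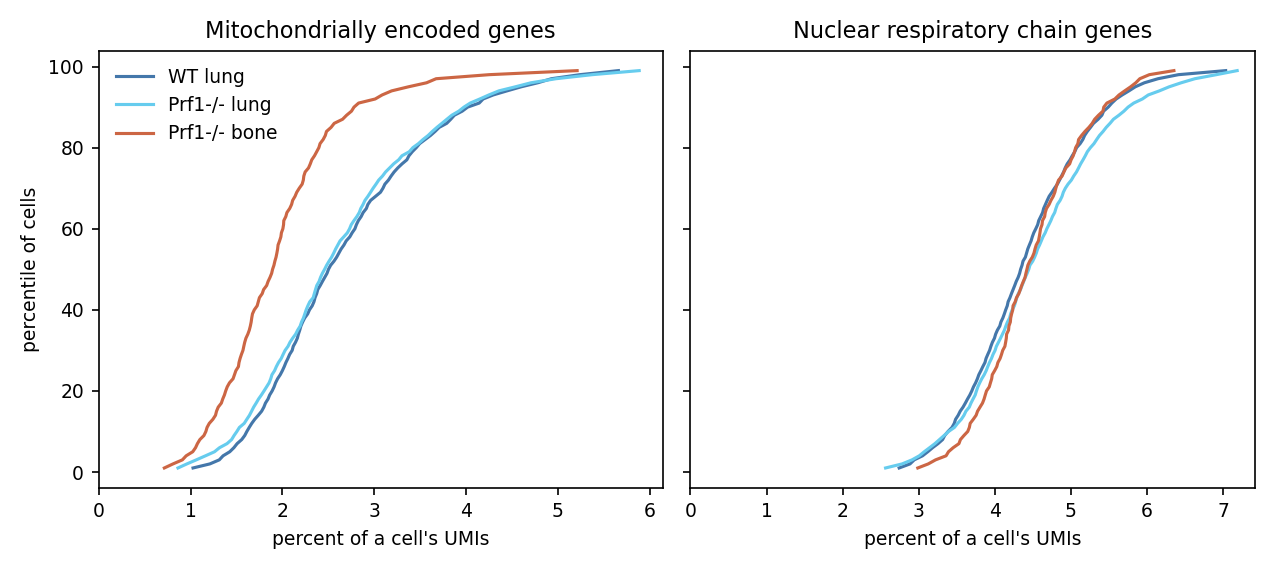
Percentile of cells (vertical axis, percent) against the share of a cell's UMIs (horizontal axis, percent) from the 13 mitochondrial genes (left) and the 85 nuclear genes (right), 1 line per hashtag group. The bone line lies to the left of both lung lines for mitochondrial genes, with medians of 1.89% against 2.46% and 2.50%, and close to them for nuclear genes.

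A gene is called measured where its level averaged 50 CPM or more in the 2 groups of a comparison, which held for 11 mitochondrial and 77 nuclear members. Of the 11 measured mitochondrial genes 10 were at least 1.2-fold lower in bone than in Prf1-/- lung (90.9%), the other being mt-Nd3, and all 11 lay below a log2 ratio of 0. Over all 2997 measured genes 16.0% were lower and 12.1% higher by that fold. The median log2 ratio of the mitochondrial genes was -0.42, against 0.00 for all measured genes. Of the 77 measured nuclear members 6 were lower (7.79%) and 1 was higher (1.30%), both shares under those of all genes, and their median was -0.03. The shares of all genes were not matched to the members for level. Counting intervals were wider there, with median bounds of the log2 ratio of -0.27 and 0.24, against -0.18 and 0.09 for nuclear members. By 1.5-fold 1 member was lower, mt-Nd2, and none higher, where 2.60% and 1.40% of all measured genes passed that fold.

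**Figure D2:**
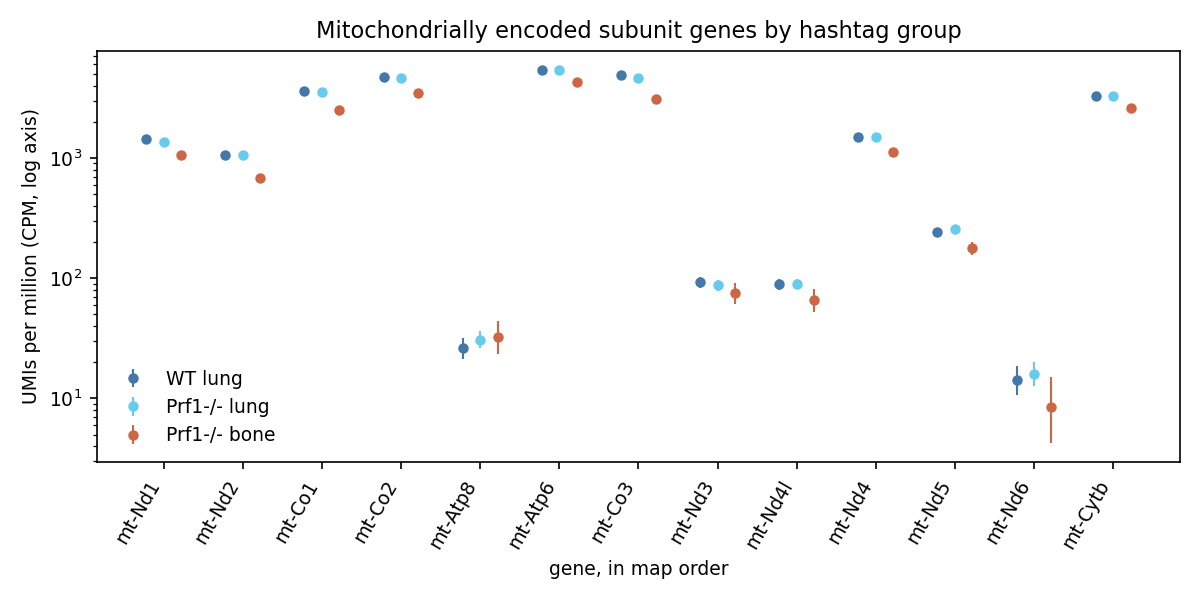
Level of each mitochondrially encoded subunit gene in CPM (log axis) in map order, with 1 point per hashtag group and bars for exact Poisson 95% intervals. Bone points lie below both lung points for 12 of the 13 genes, the exception being mt-Atp8.

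Complex I, the entry point for electrons from NADH, takes 7 proteins from the mitochondrial genome, all of them in its membrane arm. The gene mt-Nd2 (ENSMUSG00000064345, MT:3914-4951) stood at 1050.0 CPM in both lung groups and at 684 in bone, a ratio to Prf1-/- lung of 0.652 (0.606 to 0.6999). Its upstream neighbour mt-Nd1 (MT:2751-3707) stood at 1449, 1347 and 1067 CPM, a bone ratio of 0.792 (0.747 to 0.840). For mt-Nd1 the 3 groups were in falling order, while for mt-Nd2 the lung groups were level.

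The gene mt-Nd4 stood at 1498, 1504 and 1126 CPM and had a bone ratio of 0.749 (0.707 to 0.792). The gene mt-Nd5 stood at 241, 255 and 177 CPM and had a bone ratio of 0.694 (0.6003 to 0.800). In both, the lung groups lay close together and bone was the lowest group. The short gene mt-Nd4l (MT:9877-10173) had a ratio of 0.734 (0.575 to 0.929). It overlaps mt-Nd4 only at MT:10167-10173, and how reads over these bases were counted is not stated. The scarce mt-Nd3 stood at 92.9, 87.2 and 74.6 CPM, and its ratio of 0.856 (0.679 to 1.07) has an interval that holds 1.

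The gene mt-Nd6 lies on the strand opposite to the other 12. It had 55, 76 and 11 UMIs, or 14.2, 16.1 and 8.46 CPM, which is under the level called measured. Its ratio of 0.526 (0.252 to 0.996) rests on these few UMIs. It overlaps mt-Nd5 only at MT:13552-13565, and the sources used here do not say whether counting used strand.

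Complex III has 1 mitochondrial subunit, cytochrome b. Its gene mt-Cytb (MT:14145-15288) stood at 3267, 3301 and 2599.5 CPM, a bone ratio of 0.788 (0.759 to 0.817). The lung groups were nearly level, at a ratio of 1.01 (0.987 to 1.03), and bone lay below both.

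Complex IV, which reduces oxygen, has its 3 core proteins encoded in mitochondria. The gene mt-Co1 (MT:5328-6872), for the subunit that holds the oxygen-binding site, stood at 3596, 3551 and 2517 CPM and had a bone ratio of 0.709 (0.683 to 0.736). The gene mt-Co2 stood at 4682, 4615 and 3498 CPM, a ratio of 0.758 (0.734 to 0.783). The gene mt-Co3 (MT:8607-9390) stood at 4942, 4629.9 and 3098 CPM, a ratio of 0.669 (0.647 to 0.692). All 3 were lowest in bone, and mt-Co3 was also 0.937 (0.919 to 0.955) in Prf1-/- lung against WT lung.

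Complex V takes subunit a of its proton channel from mt-Atp6 (MT:7927-8607), which stood at 5374, 5353 and 4320.2 CPM, a bone ratio of 0.807 (0.784 to 0.831). The overlapping mt-Atp8, under the level called measured, stood at 26.1, 30.9 and 32.3 CPM, with 42 UMIs in bone and a ratio of 1.05 (0.724 to 1.48). Its value was not lower in bone, but the interval holds both 1 and the mt-Atp6 ratio, so a departure from the bone pattern is not shown. RefSeq (GRCm38.p6) lists a nuclear pseudogene of mt-Atp6, Gm10925, at chr1:24613971-24614651, and how reads shared with it were counted is not stated. Without the genes from mt-Co1 to mt-Nd4, among which mt-Atp6 lies, the mitochondrial to nuclear ratio of bone against Prf1-/- lung was 0.775.

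The mitochondrial genes were not lower by one common factor. The intervals of mt-Co3 and mt-Nd2 lay wholly below those of mt-Atp6, mt-Cytb and mt-Nd1. The adjoining mt-Co3 and mt-Atp6, which are cut from a shared precursor, gave 0.920, 0.865 and 0.717 mt-Co3 UMIs per mt-Atp6 UMI. Bone was the lowest here too, with a ratio to Prf1-/- lung of 0.829 (0.793 to 0.867), and Prf1-/- lung against WT lung stood at 0.940 (0.916 to 0.966).

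Within classes of cells the mt-Co3 per mt-Atp6 ratio of bone to Prf1-/- lung stayed below 1. It was 0.833 in cells with fewer than 3 mitotic UMIs and 0.842 in the others. It was 0.824, 0.813 and 0.872 in cells with under 2500, with 2500 to under 4000 and with 4000 or more UMIs.

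The neighbours mt-Nd2 and mt-Nd1 gave 0.725, 0.780 and 0.641 mt-Nd2 UMIs per mt-Nd1 UMI, and bone against Prf1-/- lung 0.823 (0.750 to 0.902). For mt-Co1 per mt-Co2 the values were 0.768, 0.769 and 0.720, closer together, with 0.935 (0.890 to 0.982) for bone against Prf1-/- lung.

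Nuclear members showed no shift of that size, with 47 of the 77 measured below a log2 ratio of 0 and 30 above, and promoters are shown first for the lowest and the highest member in bone of complexes I and II. The RefSeq table (GRCm38.p6) held a promoter for 65 of the 77 measured nuclear members, matched by symbol or synonym. Each line gives the 150 bases before the gene's start on its own strand. Capitals mark letters that match the consensus of NRF1, the ETS family (CCGGAAG), YY1 (ATGGCGG) or the ERR family (AAGGTCA) on either strand, overlaps allowed; these factors are known to bind at many nuclear respiratory genes.
Ndufa1: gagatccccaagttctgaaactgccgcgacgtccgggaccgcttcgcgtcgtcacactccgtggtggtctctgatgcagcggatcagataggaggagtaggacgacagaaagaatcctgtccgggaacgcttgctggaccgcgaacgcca
Ndufb7: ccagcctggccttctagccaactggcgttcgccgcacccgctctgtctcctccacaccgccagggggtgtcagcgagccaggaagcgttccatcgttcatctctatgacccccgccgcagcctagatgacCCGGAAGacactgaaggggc
Sdha: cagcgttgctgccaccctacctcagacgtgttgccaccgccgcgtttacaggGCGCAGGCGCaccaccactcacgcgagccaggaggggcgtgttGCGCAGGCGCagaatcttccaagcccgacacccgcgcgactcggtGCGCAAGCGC
Sdhd: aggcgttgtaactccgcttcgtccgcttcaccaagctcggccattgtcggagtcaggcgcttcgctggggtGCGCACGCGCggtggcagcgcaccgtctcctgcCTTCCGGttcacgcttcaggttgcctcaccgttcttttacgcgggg

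The Sdha window (chr13:74350241-74350390, minus strand) holds 3 NRF1 matches, and the Sdhd window (chr9:50603850-50603999, minus strand) holds 1 for NRF1 and 1 for the ETS family. The Ndufb7 window (chr8:83566608-83566757, plus strand) holds 1 ETS match. The Ndufa1 window (chrX:37191239-37191388, minus strand) holds none in these bases. Over 300 bases, from 250 before to 50 after the start, NRF1 matched in 24.6% of the 65 member promoters and 4.60% of all 32851 promoters. The ETS family matched in 24.6% and 8.86%, YY1 in 13.8% and 4.05% and the ERR family in 12.3% and 4.72%. The median log2 ratio in bone was 0.02 for the 16 members with an NRF1 match and -0.04 for the 49 without. For the ETS family it was -0.04 for 16 with and -0.02 for 49 without, the other way round. For YY1 it was -0.02 for 9 and -0.03 for 56, and for the ERR family 0.05 for 8 and -0.04 for 57. A link between matches and levels was not tested.

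Complexes were assigned by symbol, so Ndufa4 and Ndufa4l2 count under complex I in every count, median, sum and ratio by complex. For complex I, 37 of 38 nuclear genes were measured, with a median log2 ratio in bone of -0.01, and 2 were lower and 1 higher. Counts by complex are read against all measured genes, of which 16.0% were lower in bone and 12.1% higher. Ndufa1, a small membrane-arm subunit encoded on the X chromosome, stood at 137, 146 and 109 CPM, a ratio of 0.749 (0.620 to 0.898). Ndufs1, the large iron-sulfur subunit of the NADH-oxidizing arm, stood at 80.5, 85.0 and 68.5 CPM, and its interval of 0.633 to 1.02 holds 1. For Ndufa1 the bone group lay below both lung groups, whose levels were close.

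Ndufb7, an accessory subunit, was the 1 nuclear member higher in bone, at 520.5, 506 and 644 CPM and a ratio of 1.27 (1.18 to 1.38). Ndufa7 stood at 329, 326 and 376 CPM, a ratio of 1.15 (1.04 to 1.28), short of 1.2-fold. The most abundant were Ndufa4, named for complex I but a subunit of complex IV, at 2411, 2337 and 2351 CPM, and Ndufb9 at 1312, 1231 and 1321 CPM. Neither reached 1.2-fold in either comparison.

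Complex II, which also works in the citric acid cycle, was the nuclear set with the lowest median in bone, -0.19 over its 4 genes. Sdha, the catalytic flavoprotein, stood at 95.2, 101 and 78.5 CPM, a ratio of 0.779 (0.623 to 0.967). Sdhb, the iron-sulfur subunit, stood at 812, 842 and 705 CPM, a ratio of 0.837 (0.778 to 0.899), just short of 1.2-fold. The membrane anchors Sdhc and Sdhd had ratios of 0.911 (0.747 to 1.10) and 1.02 (0.780 to 1.33), with intervals that hold 1. Summed, complex II stood at 1069, 1110.3 and 942 CPM, a ratio of 0.848 (0.797 to 0.903), most of it from Sdhb.

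In complex III all 8 nuclear genes were measured, with a median of -0.09. Uqcrb, a subunit near the ubiquinone site, stood at 585, 589 and 471 CPM, a ratio of 0.799 (0.731 to 0.872), and was the 1 gene past 1.2-fold. Uqcrfs1, the Rieske iron-sulfur protein, had a ratio of 0.865 (0.741 to 1.01). The most abundant members Uqcrh and Uqcrq had ratios of 0.888 and 0.977. The core protein gene Uqcrc1 stood at 1.04, Uqcr11 at 1.00 and Uqcr10 at 0.919.

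In complex IV none of the 11 measured nuclear genes passed 1.2-fold in bone, and their median was -0.08, with 9 of 11 below 0. Cox4i1, the general form of subunit 4, stood at 2279, 2442 and 2609.5 CPM, and Cox8a at 1317, 1372 and 1344. Cox7a2l, which helps join complexes III and IV into supercomplexes, had a ratio of 0.854 (0.768 to 0.948), and Cox7b one of 1.16 (1.09 to 1.22). Cox5a, Cox7a2, Cox6b1 and Cox7c stood between 0.910 and 0.930, each with an interval below 1. The nuclear Cox genes, without Ndufa4, summed to 10934, 11567 and 11466 CPM, while the 3 mitochondrial genes of complex IV summed to 13219.9, 12795 and 9114. The sum of the core genes thus had a bone ratio of 0.712 (0.698 to 0.726) and that of the nuclear Cox genes 0.991 (0.973 to 1.01).

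The isoform genes of other tissues were almost silent, and the general isoforms carried the signal in all groups. Cox4i2, Cox7b2 and Cox8c had 0 UMIs in every group, where a floor of 3 UMIs equals 0.776, 0.635 and 2.31 CPM. The muscle isoform Cox6a2 had 4, 8 and 2 UMIs, Cox7a1 had 8, 13 and 2, and Cox8b had 2, 1 and 2. The testis isoform Cox6b2 had 1, 0 and 1, and Ndufa4l2, a hypoxia-inducible relative of Ndufa4, had 2, 9 and 0. The general counterparts Cox6a1, Cox6b1 and Cox7a2 stood at 335, 738 and 1139.7 CPM in bone. These 8 low genes are the nuclear members that were not measured.

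All 17 nuclear complex V genes were measured, with a median of -0.04 in bone, 2 lower and none higher. Atp5a1, the alpha subunit of the catalytic head, stood at 717, 779 and 616 CPM, a ratio of 0.791 (0.732 to 0.854). Atp5j, a stalk subunit, stood at 780.5, 803 and 639 CPM, a ratio of 0.796 (0.737 to 0.858). Atp5b, the beta subunit, is built in with alpha in equal number. It stood at 1025, 1158 and 1145 CPM, a ratio of 0.989 (0.933 to 1.05), and the intervals of Atp5a1 and Atp5b do not overlap.

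Subunit c, which forms the rotating ring, is made from 3 related genes. Atp5g1, Atp5g2 and Atp5g3 had bone ratios of 1.07 (1.00 to 1.13), 1.11 (1.05 to 1.18) and 1.05 (0.964 to 1.13), none past 1.2-fold. How reads shared between them were counted is not stated.

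**Figure D3:**
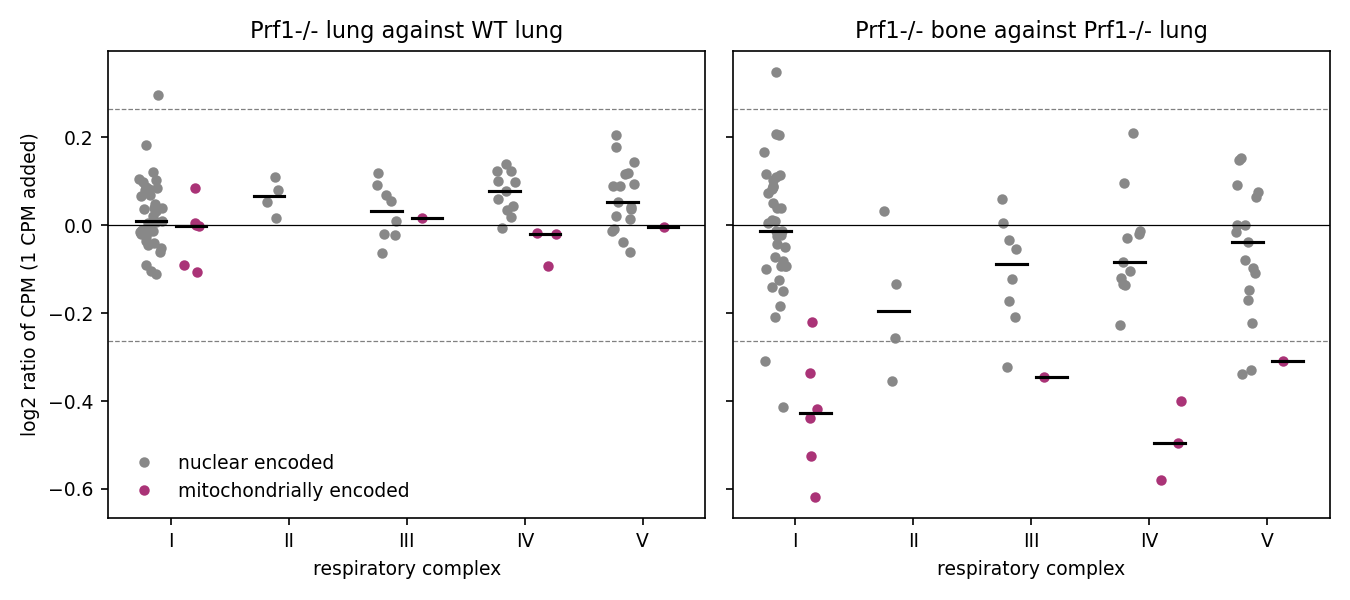
Log2 ratio of CPM (1 CPM added to each side) for each measured member, by complex, with nuclear genes in grey and mitochondrial genes in purple. Black bars are medians and dashed lines mark 1.2-fold. In the bone comparison (right) 10 of 11 mitochondrial genes lie under the lower line against 6 of 77 nuclear genes, and in the lung comparison (left) 0 of each.

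Set against the nuclear genes of the same complex, the mitochondrial genes were lower in bone in all 4 mixed complexes. The bone ratio of mitochondrial per nuclear UMIs was 0.728 (0.702 to 0.755) in complex I and 0.719 (0.6996 to 0.738) in complex IV. It was 0.854 (0.815 to 0.895) in complex III and 0.839 (0.811 to 0.868) in complex V. Complexes I and IV were thus lower than III and V, with intervals that do not overlap. This contrast rests on few genes, mt-Cytb alone in complex III and mt-Atp6 for almost all mitochondrial UMIs of complex V. Their CPM ratios, 0.788 and 0.807, lay within the range of measured complex I genes, from 0.652 (mt-Nd2) to 0.856 (mt-Nd3). The nuclear sums also differed, with bone ratios of 1.01, 0.922, 0.991 and 0.964 for I, III, IV and V. For Prf1-/- lung against WT lung the mitochondrial per nuclear ratios for I, III, IV and V were 0.975, 0.969, 0.915 and 0.951.

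**Figure D4:**
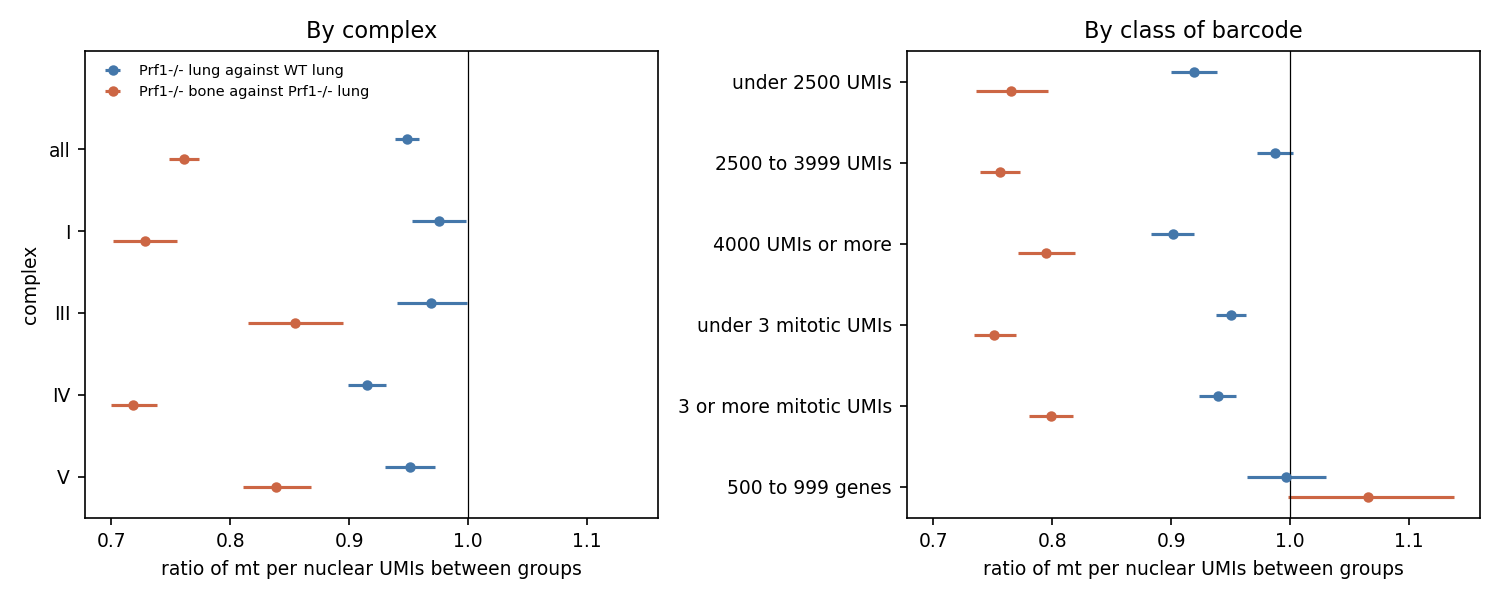
Ratio between groups of mitochondrial per nuclear subunit UMIs (horizontal axis, 1 marks no difference) by complex (left) and by class of barcode (right), with 95% counting intervals. Bone against Prf1-/- lung lies between 0.719 and 0.854 for the 4 complexes and at 1.07 for barcodes with 500 to under 1000 genes.

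Between Prf1-/- lung and WT lung the members differed little. No mitochondrial gene and 1 nuclear gene passed 1.2-fold, where 2.73% of the 3042 measured genes were lower and 2.73% higher. By 1.5-fold none passed, against 0.493% of measured genes lower and 0.0657% higher. The 1 was Ndufa10, an accessory complex I subunit, at 270.2 CPM in Prf1-/- lung against 219.9 in WT lung and a ratio of 1.23 (1.13 to 1.34), and it stood at 238 CPM in bone. Atp5d, a central stalk gene, had a ratio of 1.15 (1.10 to 1.21) and Cox5b one of 1.10 (1.06 to 1.15). The lowest was Ndufa3 at 0.926 (0.813 to 1.05), with an interval that holds 1, followed by mt-Nd1 at 0.929 (0.896 to 0.963). The median log2 ratios were -0.01 for mitochondrial and 0.04 for nuclear genes.

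The bone difference was present in cells of each depth class. Bone against Prf1-/- lung, mitochondrial per nuclear UMIs gave 0.766 (0.736 to 0.796) in cells with under 2500 UMIs, 0.756 (0.739 to 0.773) at 2500 to under 4000 and 0.795 (0.771 to 0.819) at 4000 or more. It was not seen below the gene minimum: in barcodes with 500 to under 1000 genes, 35 of them from bone, the ratio was 1.07 (0.998 to 1.14). Just inside the minimum, at 1000 to under 1100 genes (22 bone cells), it was 0.945 (0.875 to 1.02). Just outside, at 900 to under 1000 (10 bone barcodes), it was 0.985 (0.881 to 1.10).

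Cells with 3 or more UMIs over 20 mitotic genes had a lower mitochondrial share in every group, but deeper cells reach that count more easily and the share was also lower in deeper cells; the 2 were not separated. From the shallowest to the deepest of the 3 depth classes the mitochondrial sum went from 29992 to 24575 CPM in WT lung, from 27984 to 22933 in Prf1-/- lung and from 22234 to 17417 in bone. By mitotic class the mitochondrial sum stood at 28821, 28068 and 20969 CPM in cells with fewer than 3 mitotic UMIs and at 23255, 22801 and 17933 CPM in cells with 3 or more. Bone was the lowest group within both classes, with ratios of mitochondrial per nuclear UMIs to Prf1-/- lung of 0.751 (0.734 to 0.769) and 0.799 (0.781 to 0.818). Between 2 and 4 mitotic UMIs, near the border of the classes, lay 205, 242 and 95 cells. The upper class held 38.1%, 35.2% and 48.6% of cells as counted. With every cell thinned to 1500 UMIs, which left out 1 Prf1-/- lung cell, it held 26.0% (23.6 to 28.5), 23.8% (21.6 to 26.0) and 28.6% (24.1 to 33.4), intervals that overlap between bone and each lung group.

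Other RNA also moved with the group. Malat1, a long RNA that stays in the nucleus, stood at 5789, 6299.7 and 4861 CPM, a bone ratio of 0.772 (0.751 to 0.793), and the summed pigment cell markers were lower in bone as given above. The part of either in the mitochondrial result was not tested. Site, crushing of the tissue and digestion time differ together and cannot be told apart.

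Genes that serve the chain without matching the symbol rule mostly stayed near the nuclear members. Their counts are read against the 16.0% of all measured genes that were lower in bone and the 12.1% that were higher. Of the 7 measured electron carriers and subunits left out by the rule none passed 1.2-fold in bone, among them cytochrome c (Cycs, ratio 0.936), and the ATP synthase inhibitor gene Atpif1 stood at 1.12. Of 22 measured genes for the outer membrane, import and chaperones none was lower and 1 was higher, Phb at 1.26 (0.964 to 1.63), with an interval that holds 1. The chaperonin gene Hspd1 had a ratio of 1.02.

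Of 66 measured mitochondrial ribosomal protein genes 5 were higher and 4 lower in bone, where 12.1% of all measured genes were higher and 16.0% lower. Their median was 0.03. The 4 were Mrpl38 at 0.677 (0.508 to 0.890), Mrpl22, Mrpl41 and Mrpl24. The 5 were Mrpl9 at 1.35 (1.07 to 1.69), Mrps30, Mrpl15, Mrps14 and Mrpl2. As a group these genes thus stood level between bone and Prf1-/- lung.

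For the lists of assembly genes the counts are small, and they are read against the 16.0% of all measured genes that were lower in bone and the 12.1% that were higher. None of 4 measured complex I assembly genes passed 1.2-fold. Of 3 genes for complexes II and III 1 was higher, Uqcc2, at 440.1 CPM in Prf1-/- lung and 549 in bone, a ratio of 1.25 (1.15 to 1.36). Of 12 genes for complexes IV and V 2 were lower, Higd2a at 0.728 (0.614 to 0.859) and Cox16 at 0.8001 (0.635 to 0.999). The 2 higher ones were Cmc2 at 1.41 (1.16 to 1.69) and Higd1a at 1.37 (1.25 to 1.503).

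Genes that make or handle mitochondrial RNA were mostly too scarce to describe. Of 15 replication and transcription genes 1 was measured, Ssbp1, the single-stranded DNA binding protein, at a ratio of 1.02 (0.860 to 1.205). The transcription factor gene Tfam stood at 40.6, 41.5 and 43.1 CPM. Of 3 measured genes for RNA processing and decay 1 was lower in bone, where 16.0% of all measured genes were lower. It was Rexo2, which degrades short RNA fragments, at 422, 439 and 356 CPM and a ratio of 0.810 (0.731 to 0.897). Slirp, which stabilizes mitochondrial mRNA, stood at 1.13 (0.942 to 1.35). Its partner Lrpprc, under the level called measured and named after its values were seen, stood at 27.4, 27.5 and 16.2 CPM, a ratio of 0.588 (0.352 to 0.936). All genes of this list summed to 920, 962 and 843 CPM, a ratio of 0.877 (0.820 to 0.937), with most of the difference from Rexo2.

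Of 14 measured citric acid cycle genes and their entry enzymes 5 were lower and none higher in bone, with a median of -0.16, where 16.0% of all measured genes were lower and 12.1% higher. Idh3a, the catalytic subunit of the NAD-dependent isocitrate dehydrogenase, stood at 82.3, 99.6 and 56.9 CPM, a ratio of 0.571 (0.441 to 0.732). The others were Pdha1 at 0.724, Dld at 0.799, Ogdh at 0.807 and Dlat at 0.807, and the intervals of Dld and Dlat hold 1. The abundant Mdh2 and Suclg1 had ratios of 0.901 and 0.996. In Prf1-/- lung against WT lung 12 of 13 measured genes of this list lay above a log2 ratio of 0. Of these genes 3 were higher by 1.2-fold there, against 2.73% of all measured genes. Part of the bone contrast thus lies in a higher level in Prf1-/- lung. Dlat, at 45.01, 56.3 and 45.4 CPM, was level between bone and WT lung. Idh3a, Pdha1, Dld and Ogdh stood lower in bone than in WT lung too. All genes of the list summed to 2152, 2262 and 2085 CPM.

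Of 4 measured mitophagy genes 2 were lower, Sqstm1 at 0.708 (0.622 to 0.802) and Bnip3l at 0.768 (0.626 to 0.937), where 16.0% of all measured genes were lower. Sqstm1 stood at 290, 320 and 226 CPM and Bnip3l at 104, 120 and 92.3. Both were highest in Prf1-/- lung, with ratios to WT lung of 1.10 (1.02 to 1.19) and 1.16 (1.02 to 1.32). The other members, Optn and Phb2, stood at 0.903 (0.693 to 1.16) and 1.16 (1.06 to 1.26). Among regulators of respiratory genes, neither of the 2 measured passed 1.2-fold, Yy1 at 0.887 and Hif1a at 0.975. The coactivator gene Ppargc1a, under the level called measured in bone and named after its values were seen, stood at 59.5, 66.4 and 23.9 CPM.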

How the data were processed

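The members and gene lists were chosen with earlier results of these data known. The authors deposited UMI counts, as 1 RNA matrix and 1 matrix of hashtags. Cell Ranger 6.1.2, Seurat 4.3.0 and mm10 appear in the submitters' processing notes, while Cell Ranger 6.0.0 stands in the file headers. Of 15961 RNA barcodes the hashtag matrix lacked 11757, which entered no comparison between hashtag groups. Those with at least 1000 genes are described only under the other observations. Barcodes without a dominant hashtag were left out; no doublet caller was run, so doublets within 1 hashtag are not seen. Hashtags were assigned to sources by their feature names, and the cell-level metadata named in the labels were left aside. UMIs were summed per hashtag group and divided by its total (CPM), with 1 CPM added for log2 ratios. Intervals are exact Poisson for levels, exact conditional binomial for ratios, exact binomial (Clopper-Pearson) for shares, and log-scale from the 4 sums for mitochondrial per nuclear ratios. Python 3.11.15, numpy 2.4.6, scipy 1.17.1 and pandas 2.3.3 were used, and the step was tested on simulated data. All mitochondrial genes are named. Nuclear genes named per complex come from the 2 most abundant, the 2 lowest and 2 highest in bone, the extremes in lung and fixed isoform sets, and those of other lists from the 2 most abundant and the bone extremes. Other named genes were named after their values were seen. The alternatives varied the hashtag, gene and level minimums, scaling, depth and cell class.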

Additional observations from a re-analysis of the deposited data

Results flagged for a closer look

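Barcodes under 1000 genes were left out of the groups compared, and those with over 15% mitochondrial UMIs were also left out of the class of 500 to under 1000 genes. Over 15% of the UMIs were mitochondrial in 12 of 53 such Prf1-/- bone barcodes (22.6%, exact binomial interval 12.3% to 36.2%), in 30 of 299 from WT lung (10.03%, 6.87% to 14.0%) and in 43 of 411 from Prf1-/- lung (10.5%, 7.68% to 13.8%). The bone share was the highest, though its interval overlaps both others, and no test was made. Its part in the results was not tested.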

How the results depend on the processing

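The 18 settings fixed at the start and 2 chosen after seeing the data left the mitochondrial to nuclear ratio of bone below that of Prf1-/- lung in all but 1 of the settings that apply to it. Bone against Prf1-/- lung, the mitochondrial to nuclear ratio moved from 0.761 to 0.780 with at least 1500 genes per barcode, 0.799 in cells with 3 or more mitotic UMIs, 0.742 in cells thinned to 1500 UMIs and 0.775 without mt-Co1 to mt-Nd4. In barcodes of 500 to under 1000 genes alone, which hold 35 bone barcodes, it reversed to 1.07 and the mitochondrial median to 0.18. That median moved from -0.42 to -0.56 in thinned cells. In the lung comparison the ratio moved from 0.949 to 0.936 with at least 1500 genes and 0.997 with 500 to under 1000. Members higher in bone numbered 3 with hashtag counts at least 5 times the second, 2 with at least 1500 genes, 5 in cells with 3 or more mitotic UMIs and 2 in thinned cells, against 1. In the lung comparison 1 member was lower with at least 1500 genes, against 0, and 2 were higher in cells with 3 or more mitotic UMIs and 0 with equal weight per cell or in thinned cells, against 1. Shares of all measured genes were not taken under these settings, so the changed counts cannot be read as particular to the members. The cause was not tested in any of the settings above. Of the values for 58 named members under these settings 1925 stayed inside their main interval, 45 moved outside it and 0 reversed. No paired analysis was possible because each condition is 1 hashtag group. Among mitochondrial genes depth limits mt-Nd6 and mt-Atp8 most, with 11 and 42 UMIs in bone.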

Other observations

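Barcodes with at least 1000 genes that the hashtag matrix did not list, 6270 in all and of unknown source, had 0.530 mitochondrial per nuclear subunit UMIs, between bone at 0.434 and Prf1-/- lung at 0.570. The 242 with no dominant hashtag had 0.533. The level of 12 of the 13 mitochondrial genes in the unlisted barcodes lay between those of bone and Prf1-/- lung. They gave 0.844 mt-Co3 UMIs per mt-Atp6 UMI, also between bone at 0.717 and Prf1-/- lung at 0.865.

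Over cells, the shares of mitochondrial and nuclear subunit UMIs were only weakly related, with Spearman's rho of 0.18 in 1227 WT lung cells, 0.15 in 1520 Prf1-/- lung cells and 0.06 in 385 bone cells. Both shares are parts of one total in sparse counts, and these values are descriptions.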
